A study of Mus musculus with 4 samples.

Results

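The genes described here form the hepatic growth hormone pathway from its receptor to its feedback inhibitors: Ghr, Jak2, Stat5a, Stat5b, Igf1, Igfals, Socs2, Cish, Bcl6 and Cux2. They were chosen by symbol, and all 10 were found among the 25655 genes of the count table and among the 12967 genes with enough reads to be tested. Their RNA was measured by sequencing liver of the HFD-WT and HFD-KO groups, to ask how the loss of the RNA-editing enzyme ADAR2 altered liver gene expression under a high-fat diet (HFD). HFD-WT mice were ADAR2+/+ and HFD-KO mice were ADAR2-/-, and each genotype was represented by 2 libraries. All mice, controls included, were homozygous for the GluR-B R allele, which lets mice without ADAR2 survive, and had a mixed B6129S background. The HFD began at 5 weeks of age and lasted 12 weeks. The deletion was present in the whole animal, so the liver was not the only organ without ADAR2. Whether a library held RNA of 1 mouse or of a pool is not stated in the sources used here, although a figure legend of the study counts more mice per group than there are libraries, and the p-values below measure only the spread between these libraries.

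Growth hormone binds its receptor on hepatocytes and activates the kinase JAK2, which phosphorylates STAT5 proteins. STAT5 dimers then enter the nucleus and drive genes for circulating growth factors together with genes for inhibitors that shut the signal off again. Pituitary growth hormone is released in pulses in male rodents and more evenly in females, and this difference in pattern sets the sex-biased expression of many liver genes.

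Some start sites of 3 of these genes carried the sequence that STAT5 dimers are known to recognise. A stretch of each gene is shown because the same genes are compared below. The RefSeq promoter windows (assembly GRCm38.p6, 250 bases upstream to 50 bases downstream of a start site) covered 9 of the 10 genes with 16 windows, all but Socs2. The letters searched were TTCNNNGAA, which read the same on both strands, and overlapping matches would each have been counted. A match was found in 5 of the 16 windows, in Cish, Igfals and Bcl6, against 8.3% of all 32851 windows. At least 2 matches were found in 2 of the 16 windows, that of Cish and that of the second start site of Bcl6, against 0.457% of all windows. Capitals mark the matches, and each run is written 5′ to 3′ on the strand of its gene.
Cish, chr9:107296654-107296683, plus strand: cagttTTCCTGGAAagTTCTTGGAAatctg
Bcl6, second start site, chr16:23981343-23981471, minus strand: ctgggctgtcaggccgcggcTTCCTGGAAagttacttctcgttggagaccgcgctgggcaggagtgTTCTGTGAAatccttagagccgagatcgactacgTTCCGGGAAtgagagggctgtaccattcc
Igfals, second start site, chr17:24878153-24878201, plus strand: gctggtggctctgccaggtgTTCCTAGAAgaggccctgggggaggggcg
In Cish the first match began at the start site itself and the second 11 bases further on. In Bcl6 the matches began 168, 122 and 88 bases upstream of its second start site. In Igfals the match shown began 58 bases upstream of its second start site. The first start sites of Bcl6 and Igfals also held a match, 118 and 236 bases upstream, which is not shown. Counted by gene, 3 of the 9 genes had a match, against 9.55% of 27025 genes. A match describes the letters only, and no binding was measured in these libraries.

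The total count per library lay between 24480798 and 28691330, and a count of 3 corresponded to 0.104 to 0.126 CPM (counts per 1000000 counts of a library, with the library total scaled by TMM), a limit that covers counting error only. Adarb1, which encodes ADAR2, was at 15.7 and 19.8 CPM in HFD-WT and at 6.23 and 9.54 CPM in HFD-KO, a log2 fold change of -1.17 ± 0.20 (SE, n = 2 per group) with an adjusted p of 0.159 by edgeR and 0.000416 by DESeq2, so the targeted gene was lower in both HFD-KO libraries but still had reads there. The 4 Y-linked genes examined had between 177 and 1073 counts in every library, and the study states that male mice were used for its later experiments. The hepatocyte markers measured were abundant in all libraries (71760 to 87230 CPM summed over 6 genes), and the replicates of HFD-KO differed more than those of HFD-WT, with 189 against 41 genes at a gap of at least 1 on the log2 scale. The summed CPM of 8 Kupffer cell markers was 272 and 344 in HFD-WT and 222 and 218 in HFD-KO, with 7 of the 8 below both HFD-WT libraries in both HFD-KO libraries, a position taken by 20.3% of all genes tested. The summed CPM of 8 stellate cell markers was 442 and 489 against 410 and 319, that of 8 endothelial markers 305 and 335 against 307 and 310, and that of 5 cholangiocyte markers 71.5 and 90.4 against 59.4 and 50.02. The first HFD-KO library stood apart with 121 CPM over 6 B and plasma cell markers (14.1 to 17.6 in the others), and the second with 1146 CPM over 5 red cell genes (600.2 to 810.4 in the others). No marker of these lists was at 0 in any library except Mzb1, a plasma cell gene, in the second HFD-WT library. The part of these differences in the results below was not tested, and in bulk liver fewer cells of a type and less RNA per cell cannot be told apart.

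None of the 10 pathway genes differed between the genotypes at an adjusted p under 0.05 by the quasi-likelihood test of edgeR, adjusted by Benjamini-Hochberg over every gene tested, a threshold that 0.0771% of those genes passed (0.054% higher and 0.0231% lower in HFD-KO). DESeq2 also placed 0 of the 10 past it, against 55 higher and 60 lower among all 12967 genes tested. At an unadjusted p under 0.05, 4 were higher in HFD-KO, namely Stat5a, Igf1, Igfals and Cux2, and 0 were lower, where 8.98% of all genes tested passed, 4.25% higher and 4.73% lower. Over all genes these were 551 higher and 613 lower with TMM and 345 higher and 894 lower with library size alone, where 3 of the 10 pathway genes were higher and 0 lower. Leaving out 1 HFD-KO library moved the log2 fold changes, the single library left being assumed to vary like the other genotype. Without the first they were 1.05 for Socs2, 0.32 for Igf1, 0.38 for Igfals, 4.66 for Cux2, -0.45 for Cish and 0.058 for Bcl6. Without the second they were -0.63, 0.16, 0.26, -0.10, -1.48 and 1.09 in the same order. Both HFD-KO libraries lay above both HFD-WT libraries for 4 genes, Jak2, Stat5a, Igf1 and Igfals, a position taken by 20.5% of all genes, and no gene of the pathway lay below in both (20.3% of all genes). The groups overlapped for the other 6. The median log2 fold change was 0.27 over the 10 genes and 0.01 over all genes tested. The genes thus split by behaviour: receptor, kinase, STAT5 and growth factor genes varied by at most 1.42-fold over all 4 libraries, and the feedback and repressor genes by 3.25-fold or more.

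**Figure D1:**
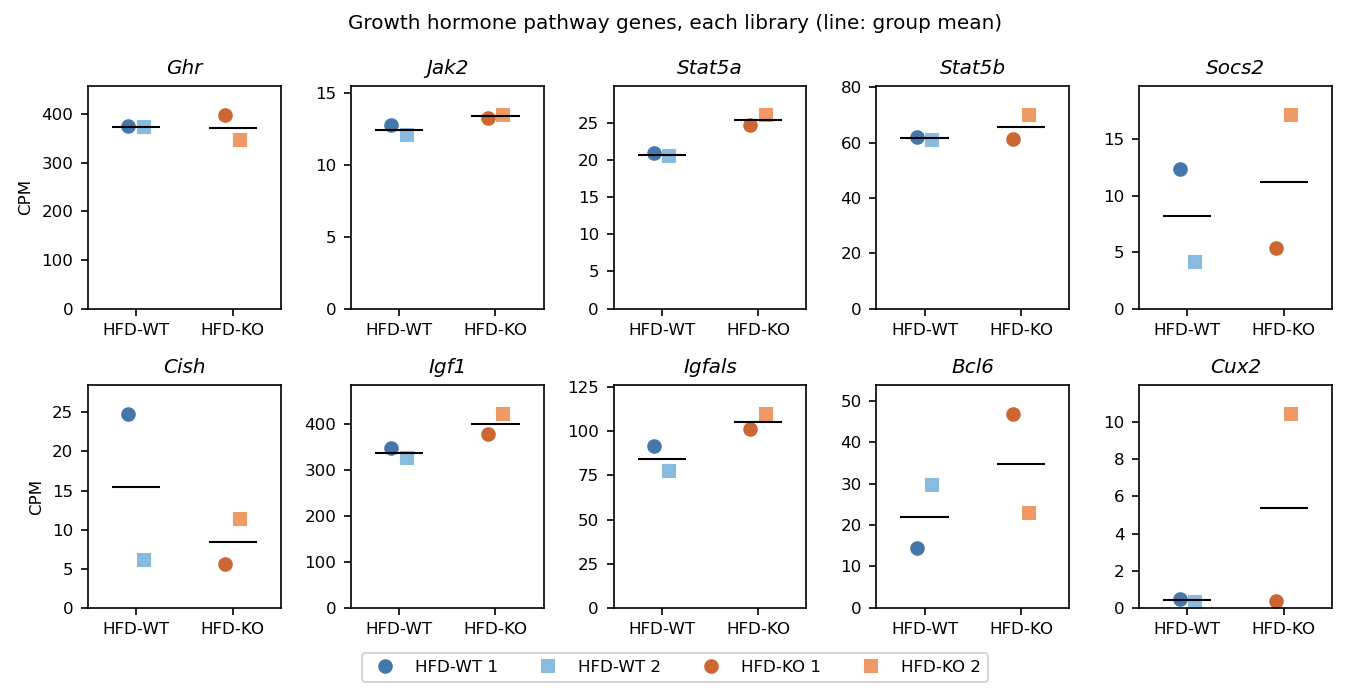
CPM of the 10 genes in each of the 4 libraries, 1 panel per gene with its own axis starting at 0; each marker is 1 library and each black line a group mean. Ghr, Jak2, Stat5a, Stat5b, Igf1 and Igfals stay within 1.42-fold across libraries, and Socs2, Cish, Bcl6 and Cux2 differ more between libraries of 1 genotype.

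Ghr (ENSMUSG00000055737, chromosome 15 from 3347242 to 3612974, minus strand, positions on GRCm39 as in the table) encodes the growth hormone receptor. It was at 374.6 and 372.5 CPM in HFD-WT and at 398.0 and 345.8 CPM in HFD-KO. The HFD-KO libraries lay on either side of the HFD-WT pair. The log2 fold change was -0.006 ± 0.10 (SE, n = 2 libraries per group, adjusted p = 0.99 by edgeR), and leaving out 1 library at a time moved it between -0.111 and 0.091. Jak2 (ENSMUSG00000024789, chromosome 19 from 29229228 to 29290480, plus strand), the kinase bound to the receptor, was at 12.8 and 12.1 CPM in HFD-WT and at 13.3 and 13.5 CPM in HFD-KO. Both HFD-KO libraries were slightly above the HFD-WT libraries, by a log2 fold change of 0.10 ± 0.10 (SE, n = 2 per group, adjusted p = 0.801 by edgeR).

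Stat5a and Stat5b encode the 2 STAT5 proteins, of which STAT5b is the main carrier of the growth hormone signal in mouse liver, and they lie next to each other on chromosome 11, separated by 8626 bases. Stat5b (ENSMUSG00000020919, 100671557 to 100741550, minus strand) was at 61.9 and 61.1 CPM in HFD-WT and at 61.3 and 69.9 CPM in HFD-KO. Only the second HFD-KO library stood out, the groups overlapped, and the log2 fold change was 0.09 ± 0.09 (SE, n = 2 per group, adjusted p = 0.804 by edgeR) or -0.005 without that library. Stat5a (ENSMUSG00000004043, 100750177 to 100775995, plus strand) was at 20.9 and 20.5 CPM in HFD-WT and at 24.7 and 26.0 CPM in HFD-KO. The groups did not overlap and replicates were within 1.05-fold of each other. Its log2 fold change of 0.29 ± 0.08 (SE, n = 2 per group) had the smallest p of the 10 genes, 0.00901 by edgeR's quasi-likelihood test, and an adjusted p of 0.37, and the unadjusted p by edgeR was 0.0579 without the second HFD-WT library. The annotated span of Stat5a overlaps that of Stat3 on the opposite strand, with 12793 counts on Stat3 and 2441 on Stat5a over the 4 libraries. The shared stretch runs only from 100775924 to 100775995, where the exon length of Stat5a is 4443 bases. Whether counting used strand is not stated, so reads of the shared stretch cannot be told apart. Measured per length as TPM, a read count scaled by transcript length and library total, the level of Stat5b was 2.19 and 2.21 times that of Stat5a in HFD-WT and 1.84 and 1.99 times in HFD-KO. The genes tested whose centred log2 CPM followed Stat5a most closely over the 4 libraries were 9930104L06Rik, Fbxw7 and Slc66a2, with root mean square differences of 0.009, 0.013 and 0.016.

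Igf1 and Igfals carry the endocrine output of the pathway. Igf1 (ENSMUSG00000020053, chromosome 10 from 87694127 to 87772904, plus strand) encodes insulin-like growth factor 1, which the liver secretes into blood, and was at 348.1 and 327.4 CPM in HFD-WT and at 378.4 and 421.7 CPM in HFD-KO. Both HFD-KO libraries were higher, by a log2 fold change of 0.24 ± 0.09 (SE, n = 2 per group, unadjusted p = 0.0338 and adjusted p = 0.509 by edgeR). Igfals (ENSMUSG00000046070, chromosome 17 from 25084971 to 25100984, plus strand) encodes the acid-labile subunit that holds IGF1 in a large circulating complex. It was at 91.6 and 77.2 CPM in HFD-WT and at 101.2 and 109.5 CPM in HFD-KO. Again no HFD-KO library reached down to the HFD-WT range, and the log2 fold change was 0.32 ± 0.10 (SE, n = 2 per group, unadjusted p = 0.0167 and adjusted p = 0.437 by edgeR). Without the first HFD-KO library the log2 fold changes were 0.32 for Igf1 and 0.38 for Igfals. Without the second HFD-WT library the unadjusted p by edgeR was 0.215 for Igf1 and 0.169 for Igfals, with log2 fold changes of 0.20 and 0.20. For Igf1 the unadjusted p by edgeR was also 0.0981 without the first HFD-WT library, 0.0936 without the second HFD-KO library, 0.0656 with library size alone and 0.0558 with the replicate number as a block. Igf1 and Socs2 lie on the chromosome of Adarb1, 10.4 and 18 Mb away, and on a mixed background an effect of linked alleles and an effect of the deletion cannot be told apart for them.

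**Figure D2:**
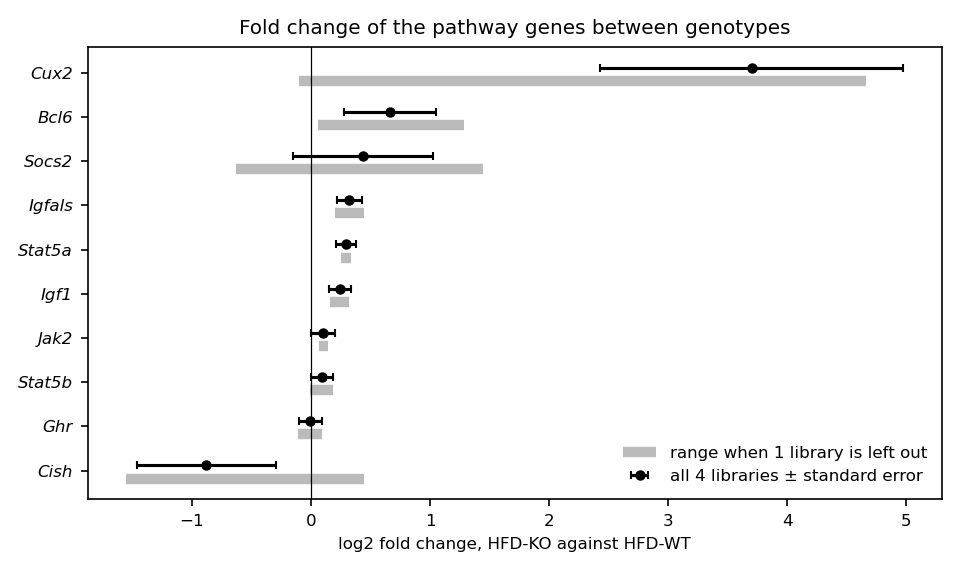
Log2 fold change of HFD-KO over HFD-WT for each gene, with edgeR's estimate and its standard error from all 4 libraries and a grey bar for the range of the estimates with 1 library left out. The grey bars of Jak2, Stat5a, Igf1, Igfals and Bcl6 lie above 0, and those of the other 5 genes cross it.

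Cish and Socs2 encode inhibitors that STAT5 itself induces and that bind the receptor complex to end signalling. Cish (ENSMUSG00000032578, chromosome 9 from 107173225 to 107179983, plus strand), whose start site holds the paired matches shown above, was at 24.8 and 6.18 CPM in HFD-WT and at 5.58 and 11.3 CPM in HFD-KO, from 717, 170, 147 and 271 counts. The first HFD-WT library was the highest and the other HFD-WT library lay between the HFD-KO libraries, a 4.01-fold gap within 1 genotype. The log2 fold change was -0.88 ± 0.58 (SE, n = 2 per group, adjusted p = 0.701 by edgeR), and it was 0.44 without the first HFD-WT library and -1.48 without the second HFD-KO library. Socs2 (ENSMUSG00000020027, chromosome 10 from 95221224 to 95253042, minus strand) was at 12.4 and 4.11 CPM in HFD-WT and at 5.35 and 17.2 CPM in HFD-KO. Each genotype held 1 high and 1 low library, 3.01-fold and 3.21-fold apart. Its log2 fold change of 0.44 ± 0.59 (SE, n = 2 per group, adjusted p = 0.862 by edgeR) moved to -0.63 without the second HFD-KO library and to 1.05 without the first.

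Bcl6 and Cux2 encode repressors that act on STAT5 target genes in opposite sexes, BCL6 being male-biased and CUX2 female-biased in mouse liver. Bcl6 (ENSMUSG00000022508, chromosome 16 from 23783802 to 23807602, minus strand), a gene repressed by STAT5 in liver and the holder of 3 matches at its second start site, was at 14.4 and 29.8 CPM in HFD-WT and at 46.7 and 22.9 CPM in HFD-KO. The groups overlapped, and from highest to lowest the libraries ran in exactly the reverse of the order for Cish. The log2 fold change was 0.66 ± 0.39 (SE, n = 2 per group, adjusted p = 0.668 by edgeR), and it was 1.09 without the second HFD-KO library and 0.058 without the first. Cux2 (ENSMUSG00000042589, chromosome 5 from 121994429 to 122188165, minus strand) was at 0.483 and 0.327 CPM in HFD-WT and at 0.380 and 10.4 CPM in HFD-KO, from 14, 9, 10 and 249 counts. Only the second HFD-KO library was high, 27.4-fold above the other library of its genotype, which lay inside the HFD-WT range. The log2 fold change of 3.70 ± 1.27 (SE, n = 2 per group, unadjusted p = 0.0216 and adjusted p = 0.46 by edgeR) therefore rested on that library and was -0.10 without it.

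Some of these gaps between replicates of Cish, Socs2, Bcl6 and Cux2 were among the widest of all genes tested. For Cish, the gap between the HFD-WT libraries was 1.92 on the log2 scale (first minus second library) and ranked 5 among the 12967 genes tested, and for Socs2 it was 1.48 and ranked 9. The HFD-WT gap ranked 35 for Bcl6 and 2573 for Cux2. Between the HFD-KO libraries, the gap of Cux2 was -3.63 and ranked 4 by size, while that of Socs2 ranked 45, Bcl6 178 and Cish 216. In comparison, 96.4% of the genes tested had a wider gap between the HFD-WT libraries than Ghr or one equal to it, and 35.5% did between the HFD-KO libraries. Cish and Socs2 were both higher in the first HFD-WT and second HFD-KO libraries than in the other libraries. Their top library differed, since Socs2 was highest in the second HFD-KO library and Cish in the first HFD-WT library.

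**Figure D3:**
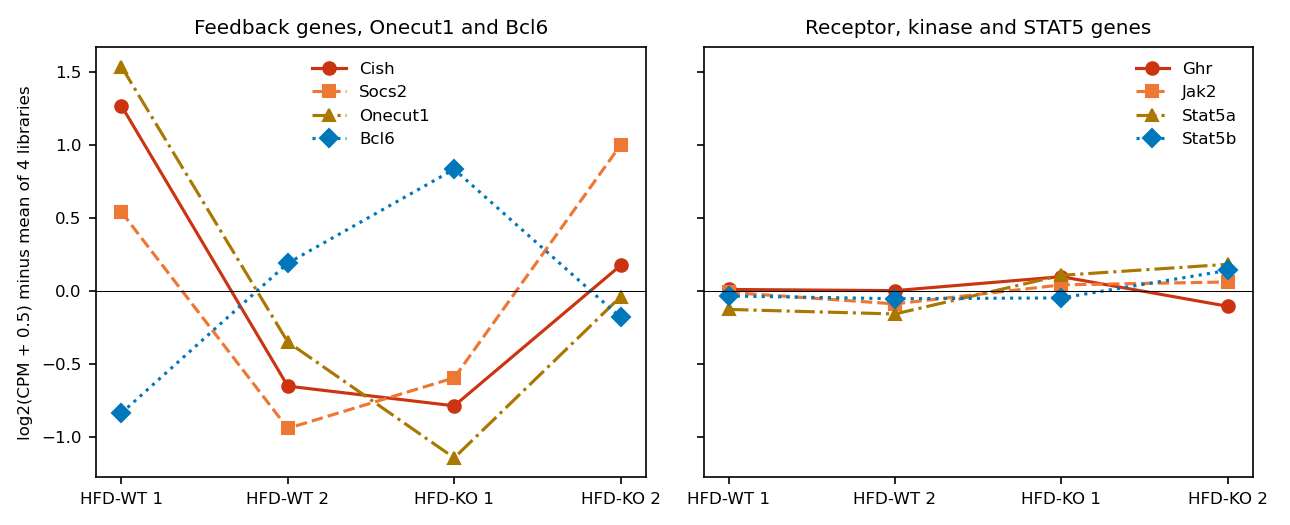
Centred log2(CPM + 0.5) per library, with Cish, Socs2, Onecut1 and Bcl6 on the left and Ghr, Jak2, Stat5a and Stat5b on the right; lines join the points of 1 gene and imply no order of the libraries. Cish and Onecut1 run together, Bcl6 runs against them, and the genes on the right stay near 0.

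The 10 genes spanned a wide range of levels per length. Ghr was the most abundant at 136.0 to 152.8 TPM over the 4 libraries, and no other gene of the 10 reached that range. Igfals (60.0 to 81.7 TPM) and Igf1 (67.5 to 83.3 TPM) overlapped each other and lay above Stat5b (21.1 to 24.7 TPM). Bcl6 (8.11 to 25.3 TPM) overlapped both Stat5b and Stat5a (10.1 to 12.4 TPM), and Stat5a did not overlap Jak2 (4.91 to 5.24 TPM). Cish (2.92 to 13.5 TPM) overlapped Bcl6, Stat5a, Jak2 and Socs2 (1.29 to 5.15 TPM), and Socs2 also overlapped Jak2. Cux2, at 0.0722 to 2.21 TPM, had the lowest median and overlapped Socs2. The order of neighbours whose ranges overlap was therefore not set by these libraries.

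**Figure D4:**
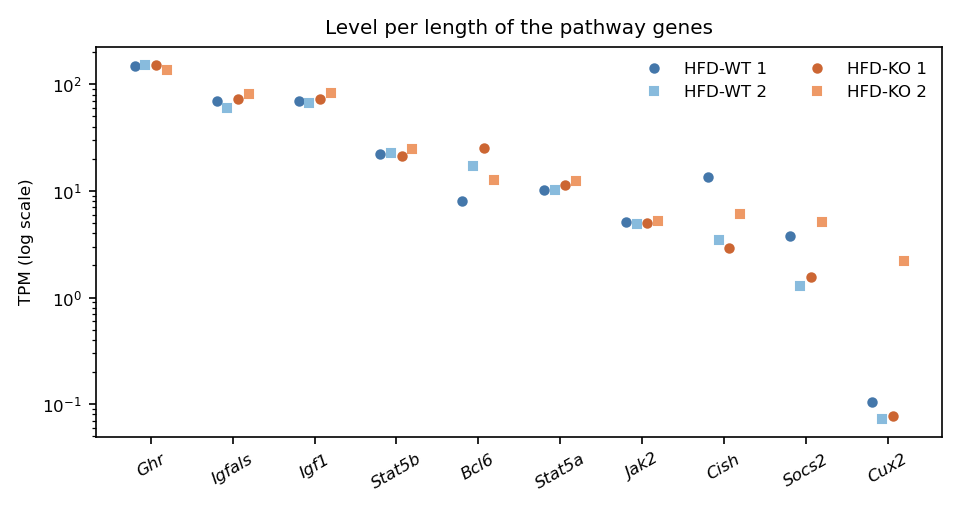
Level per length of the 10 genes in TPM on a log axis, ordered by median, with 1 point per library. Ghr lies above 136 TPM in every library, and 3 of 4 libraries hold Cux2 near 0.1 TPM.

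Among 24 other genes of the receptor and JAK-STAT machinery, 0 passed the adjusted threshold by edgeR and 2 did by DESeq2 (Irs2 and Prlr). DESeq2 placed 55 of all 12967 genes tested higher and 60 lower at that threshold. At an unadjusted p under 0.05 edgeR placed 4 of the 24 higher in HFD-KO and 1 lower, against 4.25% and 4.73% of all genes. The 4 were Irs2, Irs1, Prlr and Socs4, and the 1 was Sirpa, the latter pair named after their values were seen. Irs2, an adaptor of insulin and growth hormone signalling, was at 14.3 and 15.2 CPM in HFD-WT and at 21.8 and 25.5 CPM in HFD-KO. That is a log2 fold change of 0.68 ± 0.10 (SE, n = 2 per group) with an adjusted p of 0.115 by edgeR and 0.00998 by DESeq2. Prlr, the prolactin receptor, a relative of the growth hormone receptor with female-biased expression in mouse liver, was at 64.4 and 74.0 CPM in HFD-WT and at 89.8 and 131.0 CPM in HFD-KO (log2 fold change 0.67 ± 0.17, SE, adjusted p = 0.329 by edgeR, and 0.37 without the second HFD-KO library). Irs1 was at 21.3 and 16.7 against 25.8 and 25.0 CPM. Socs3, a further feedback inhibitor that mainly answers interleukin-6, was named after its values were seen and was at 12.6 and 9.30 against 9.04 and 18.1 CPM, with the second HFD-KO library highest as for Socs2. The median log2 fold change of the list was 0.04.

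Of 12 genes around IGF1 in blood, 10 were tested, and 0 passed the adjusted threshold by edgeR. At an unadjusted p under 0.05, 2 were higher in HFD-KO, the binding proteins Igfbp1 and Igfbp2, and 2 were lower, Igfbp3 and Igfbp7, against 4.25% and 4.73% of all genes tested. Igfbp2 was at 175.7 and 134.5 CPM in HFD-WT and at 228.1 and 380.3 CPM in HFD-KO (log2 fold change 0.97 ± 0.23, SE, n = 2 per group, adjusted p = 0.277 by edgeR, and 0.56 without the second HFD-KO library). Igfbp1, a gene induced by fasting and glucocorticoids, was at 48.3 and 68.8 CPM against 93.5 and 292.7 CPM, and its log2 fold change of 1.72 ± 0.46 (SE, adjusted p = 0.358 by edgeR) was 0.68 without the second HFD-KO library. Igfbp3, which carries IGF1 together with the product of Igfals, was at 17.3 and 22.2 CPM against 15.95 and 13.1 CPM (log2 fold change -0.44 ± 0.15, SE, adjusted p = 0.451 by edgeR). Without the second HFD-WT library the value for Igfbp3 was -0.25. Igfbp7, named after its values were seen, was at 81.6 and 86.2 against 73.3 and 52.6 CPM. The median log2 fold change of the list was 0.21.

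Genes that depend on the sex-specific pattern of growth hormone gave a mixed picture, and both lists below were compiled with earlier results of these libraries known. Of 19 male-biased genes, 1 passed the adjusted threshold by edgeR and 3 did by DESeq2 (Slco1a1, Susd4 and Serpina1e). At an unadjusted p under 0.05 by edgeR 9 were higher and 0 lower in HFD-KO, with a median log2 fold change of 0.39. Of all genes tested, 0.0771% passed the adjusted threshold by edgeR, and 4.25% were higher and 4.73% lower at the unadjusted one. DESeq2 placed 55 of the 12967 genes higher and 60 lower at the adjusted threshold. Slco1a1, a male-biased organic anion transporter, rose from 18.5 and 17.9 CPM to 59.3 and 58.0 CPM (log2 fold change 1.69 ± 0.08, SE, n = 2 per group, adjusted p = 0.0013 by edgeR, and 0.0736 without the second HFD-WT library). Susd4 was at 9.25 and 8.29 against 15.04 and 14.9 CPM (adjusted p = 0.0871 by edgeR and 0.00864 by DESeq2). Serpina1e, which has near-identical copies, was at 94.9 and 252.1 against 833.9 and 1597 CPM (adjusted p = 0.141 by edgeR and 0.0484 by DESeq2). The first HFD-KO library, highest for Bcl6 and low for Cish, held the highest value of 13 of the 19 genes, where it held that of 25.1% of all genes tested. Among those named after their values were seen, Hsd3b5, a male-specific steroid dehydrogenase, was at 0.483 and 0.472 CPM in HFD-WT and at 25.8 and 2.51 CPM in HFD-KO. Selenbp2 was at 18.2 and 35.9 against 107.1 and 20.1 CPM, with the second HFD-KO library inside the HFD-WT range, and Cyp7b1 at 43.5 and 43.4 against 86.8 and 53.4 CPM.

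Of 25 female-biased genes, 18 were tested, 0 passed the adjusted threshold by edgeR and 2 did by DESeq2 (Cyp2a4 and Nipal1). By DESeq2 55 of all 12967 genes tested were higher and 60 lower at that threshold. At an unadjusted p under 0.05 by edgeR, 6 were higher in HFD-KO and 3 lower (Cyp2a4 and, named after their values were seen, Cyp2b9 and Tox), against 4.25% and 4.73% of all genes tested, with a median log2 fold change of -0.02. Cyp2a4, a steroid hydroxylase with a near-identical neighbour, was at 21.2 and 18.9 CPM in HFD-WT and at 9.95 and 7.37 CPM in HFD-KO (log2 fold change -1.21 ± 0.15, SE, n = 2 per group, adjusted p = 0.0578 by edgeR). Nipal1 was at 3.42 and 3.20 against 7.14 and 7.83 CPM (log2 fold change 1.18 ± 0.17, SE, adjusted p = 0.0832 by edgeR). The second HFD-KO library, the one with Cux2 at 10.4 CPM, held the highest value of 9 of the 18 genes, against 29.3% of all genes tested. Cyp2c69, whose HFD-WT libraries were at or under the limit of 3 counts, was at 0.494 CPM in the first HFD-KO library and at 5.11 CPM in the second. Cyp2c40, named after its values were seen and, like Cyp2c69, one of a family of close copies, was at 0.690 and 0.727 CPM in HFD-WT and at 1.48 and 8.46 CPM in HFD-KO, and Cyp17a1, likewise named, at 48.4 and 45.1 against 60.5 and 134.1 CPM.

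**Figure D5:**
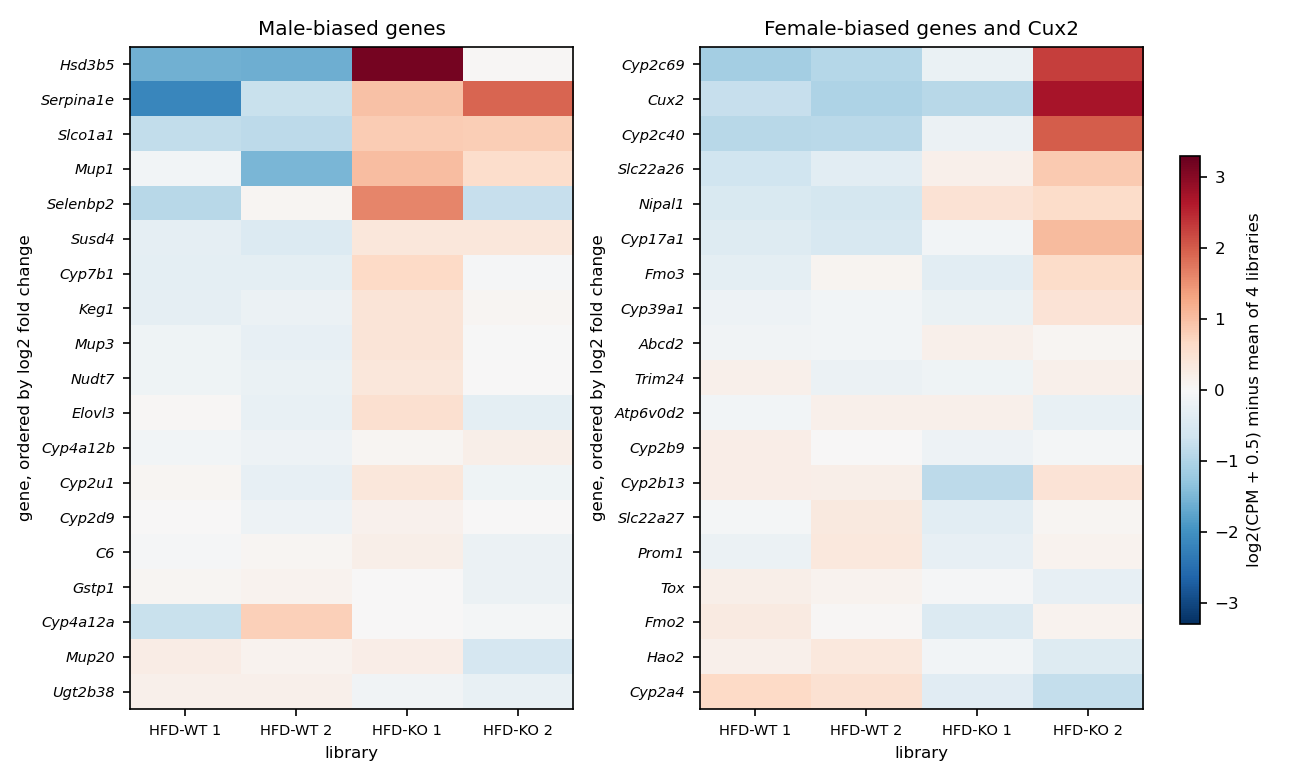
Heat map of centred log2(CPM + 0.5) in the 4 libraries for the male-biased genes on the left and for Cux2 and the tested female-biased genes on the right, on 1 colour scale, with red above and blue below the mean of a gene. The highest value of 13 of 19 male-biased genes falls in the first HFD-KO library and that of 9 of 18 female-biased genes in the second.

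Of 14 transcription factors and cofactors that act beside STAT5 in liver, 0 passed the adjusted threshold by edgeR or DESeq2. Their median log2 fold change was 0.00. At an unadjusted p under 0.05 by edgeR 0 were higher and 1 lower, against 4.25% and 4.73% of all genes tested. The 1 was Onecut1, which encodes HNF6 and is itself induced by growth hormone, at 34.8 and 9.05 CPM in HFD-WT and at 5.01 and 11.3 CPM in HFD-KO. Its libraries fell in the order seen for Cish, and its gap between the HFD-WT libraries, 1.89 on the log2 scale, ranked 6 among all genes tested, next to that of Cish. The log2 fold change was -1.44 ± 0.60 (SE, n = 2 per group, unadjusted p = 0.0461 and adjusted p = 0.544 by edgeR), and it was -0.16 without the first HFD-WT library. Foxa3 was at 41.5 and 48.4 against 50.5 and 55.5 CPM. Foxa2, a pioneer factor named after its values were seen, overlapped between the groups at 32.0 and 20.6 against 16.8 and 28.4 CPM.

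The second HFD-KO library also stood apart in some genes outside the pathway. Any relation to its values of Cux2, Socs2 and Igfbp1 was not tested. Chosen after their values were seen, Ndufa4l2 was at 17.2 CPM in that library and at 1.03 to 1.59 CPM in the others, and Pdk4 at 53.0 against 10.9 to 14.4 CPM. Of the 10 pathway genes, 7 were highest in this library and 7 were lowest in the second HFD-WT library, where 29.3% and 26.8% of all genes tested were. The first HFD-KO library stood apart in other genes, as for Hsd3b5 and Selenbp2 above. What set either library apart was not tested.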

How the data were processed

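Liver RNA of 2 HFD-WT and 2 HFD-KO libraries was extracted with TRIzol, prepared with a directional MGI kit and sequenced on a DNBSEQ-G400RS by the authors, who trimmed and aligned reads with the MGI tool and quantified genes in Partek with GENCODE annotation. The submitters' notes list mm10 and GRCm39, and of 25600 genes matched to GENCODE M21 (GRCm38) only 564 share both ends with the table, whose positions are given here as GRCm39. Use of strand and of reads with several alignments is not stated in the sources used here. The deposited read counts are whole numbers and were the only values tested. The authors' RPKM values were used to check the order of levels, and the deposited TPM values were printed as levels per length. The deposited CPM columns do not sum to a fixed total, were therefore treated as a score and were left aside, so CPM was computed from the counts. Groups and replicate numbers came from the labels.

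Counts were fitted in R 4.3.3 with edgeR 4.0.16 (filterByExpr, TMM, quasi-likelihood test, two-sided, Benjamini-Hochberg adjustment over 12967 genes). The procedure was tested on simulated data first. DESeq2 1.42.0, other scalings and filters, each library left out and a replicate block were alternatives. The 10 pathway genes and all lists were chosen with earlier results of these data known. Named genes were the 10 genes, Adarb1, list genes with an adjusted p under 0.05, the 3 with the smallest p of each list and the 3 nearest in pattern to Stat5a; others are said to be chosen after their values were seen. A gene that the rule names is not reported here. Promoter sequences came from RefSeq on GRCm38.p6. Protein sequences were not analysed here, nor was the hepatocyte marker Tf. The replicate numbers are shared by the groups without a stated pairing, so the libraries were compared unpaired.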

Additional observations from a re-analysis of the deposited data

How the results depend on the processing

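With 2 libraries per group the smallest exact permutation p is 0.333, so all calls rest on the spread that edgeR or DESeq2 shares across genes. None of the 10 pathway genes passed the adjusted threshold with DESeq2, other size factors, library size alone, no filter, a filter of at least 50 counts (which left Cux2 untested) or the replicate block. Library size alone shifted the median log2 fold change of all genes by -0.05. Low counts limit Cux2 most. The replicate numbers share no stated pairing, and deviations of same-numbered libraries had a correlation of -0.083. The causes of the changes below were not tested.

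Over all genes, 7 higher and 3 lower at adjusted p under 0.05 became 55 and 60 with DESeq2 and 81 and 81 with no filter. The higher count became 4 with library size alone and 4 with the filter of 50. At unadjusted p under 0.05 the counts became 298 higher and 373 lower with DESeq2, and 345 were higher and 894 lower with library size alone. With no filter 1 pathway gene, Cish, was lower at unadjusted p, and 1 transcription factor was higher. Past adjusted p were 2 partner genes with DESeq2 and 2 with no filter, 2 IGF genes with no filter, 3 male-biased genes with DESeq2 and 5 with no filter, and 2 female-biased genes with DESeq2 and 5 with no filter. The 1 transcription factor lower at unadjusted p, Onecut1, lost that call, leaving 0 with DESeq2 and 0 with the filter of 50.

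With the replicate block, 12 genes were higher and 8 lower at adjusted p, 2 male-biased and 1 female-biased genes passed, and at unadjusted p 1 transcription factor was higher and 0 lower.

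Leaving out 1 library at a time gave, at adjusted p, 0 (without the second HFD-WT library) to 376 genes higher and 0 to 329 lower (without the first HFD-KO library), 0 to 4 pathway, 0 to 5 partner, 0 to 5 IGF, 0 to 12 male-biased and 0 to 8 female-biased genes, and 0 to 2 transcription factors. At unadjusted p, 255 to 1095 genes were higher and 207 to 1078 lower. The ranges of higher and lower genes were 1 to 5 and 0 to 1 for the pathway, 3 to 7 and 0 to 4 for the partners, 2 to 4 and 0 to 2 for the IGF genes, 8 to 13 and 0 to 4 for male-biased genes, 5 to 7 and 1 to 5 for female-biased genes, and 0 to 3 and 0 to 2 for the factors.

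The log2 fold change ranged from -0.111 to 0.091 for Ghr, -0.005 to 0.187 for Stat5b, 0.16 to 0.32 for Igf1, 0.20 to 0.44 for Igfals, 0.058 to 1.28 for Bcl6, -0.63 to 1.44 for Socs2, -1.55 to 0.44 for Cish, -0.10 to 4.66 for Cux2, -0.42 to 1.99 for Selenbp2, -0.65 to 0.13 for Foxa2, -0.28 to 0.72 for Socs3, -0.55 to 3.52 for Ndufa4l2 and -0.38 to 1.91 for Pdk4. The sign of Socs2 turned without the second library of either group, at -0.14 for HFD-WT, and that of Foxa2 without the first of either group, at 0.13 and 0.11.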
